A study of Mus musculus with 6 samples.

Results

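The genes described here encode the enzymes that bring pyruvate into the mitochondrion, run the citrate cycle and break down the branched-chain amino acids leucine, isoleucine and valine. The 42 members were chosen by gene name from the 54532 genes of the deposited count table, and all 42 were found once each and passed the filter on low counts, so 42 of the 16623 tested genes are members. They fall into 7 genes of pyruvate entry, 12 mitochondrial genes of the citrate cycle, 5 genes of citrate export and its cytosolic use, and 18 genes of branched-chain breakdown. RNA of inguinal white adipose tissue, which lies under the skin, was sequenced from 3 Cdo1AKO samples, in which Cdo1 was knocked out in adipose tissue, and from 3 control samples that carry the floxed Cdo1 gene (Cdo1 flox/flox, given as WT in the genotype field). Mice of both groups were 8 weeks old at the start of a high-fat diet that lasted 15 weeks, so a group without this diet is not part of the comparison. The Cre driver, the sex and the number of animals behind each sample are not given in the sources used here. Cdo1 encodes cysteine dioxygenase 1, which oxidises cysteine. The comparison asks how deletion of Cdo1 in fat goes with gene expression in mice on a high-fat diet.

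In adipocytes, pyruvate enters mitochondria through a carrier, and is then either oxidised to acetyl-CoA by the pyruvate dehydrogenase complex or carboxylated to oxaloacetate by pyruvate carboxylase. Citrate made from both is burnt in the citrate cycle or exported to the cytosol, where it feeds fatty acid synthesis. Fat tissue also breaks down branched-chain amino acids in the mitochondrial matrix: a shared transaminase and a dehydrogenase complex remove nitrogen and the first carbon, and separate routes then lead to acetyl-CoA, or through propionyl-CoA to succinyl-CoA and so back into the cycle.

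Libraries held 16275184 to 19205804 counts. Cdo1 itself had 123, 392 and 134 CPM (counts divided by the TMM-scaled library total, per 1e6) in Cdo1AKO 1 to 3, against 887, 432 and 631 CPM in control 1 to 3, with Cdo1AKO 2 little below control 2. Its log2 fold change was -1.59 ± 0.53 (SE, n = 3 libraries a group; adjusted p = 0.416 by edgeR), and the deleted part of the gene was not named. Transcripts of B cells and lymph node were near absent in Cdo1AKO 2 and control 1 and abundant in the other 4 libraries: the summed CPM of 10 such markers was 724, 7.08 and 733 in Cdo1AKO 1 to 3, against 2.27, 1069 and 599 in control 1 to 3. Cdo1AKO 1 and 3 were the most alike pair of libraries, with counts that differed by 5.63 times the sampling variance per gene, more than sampling alone gives. That figure was 194 to 203 between Cdo1AKO 2 and the rest of its group, and 23.0 to 80.2 within the controls. For this reason log2 fold changes of members that Cdo1AKO 2 moves by over 1.5 times are also given without it. Nothing in the labels says that samples of a group come from separate animals, so p-values measure the spread between these samples only.

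Most members were lower in Cdo1AKO. With all libraries the branched-chain genes were lower by the most, an order that did not hold without Cdo1AKO 2. Of the 42 members 39 had a negative log2 fold change, against 44.0% of all tested genes, and the 3 positive ones were Slc25a1, Idh1 and Me1 of the citrate export group. The median log2 fold change was -0.64 over the 18 branched-chain genes, -0.30 over the 12 citrate cycle genes, -0.24 over the 7 pyruvate entry genes and 0.30 over the 5 citrate export genes, beside 0.06 over all tested genes. By edgeR's quasi-likelihood test with Benjamini-Hochberg adjustment over all tested genes, 0 members passed at 0.05, as did 0% of all genes, and the smallest adjusted p of a member was 0.345. At an unadjusted p under 0.05 there were 9 members, all lower in Cdo1AKO, 8 of them branched-chain genes, where 5.71% of all tested genes were lower at that level. DESeq2 on the same counts called 2 members lower, Dbt and Aldh6a1, where 1.66% of the genes with an adjusted p were called lower. In the authors' deposited table Aldh6a1 alone of the 42 was at adjusted p under 0.05 (0.0438), where 0.655% of the genes with an adjusted p were lower at that level.

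**Figure D1:**
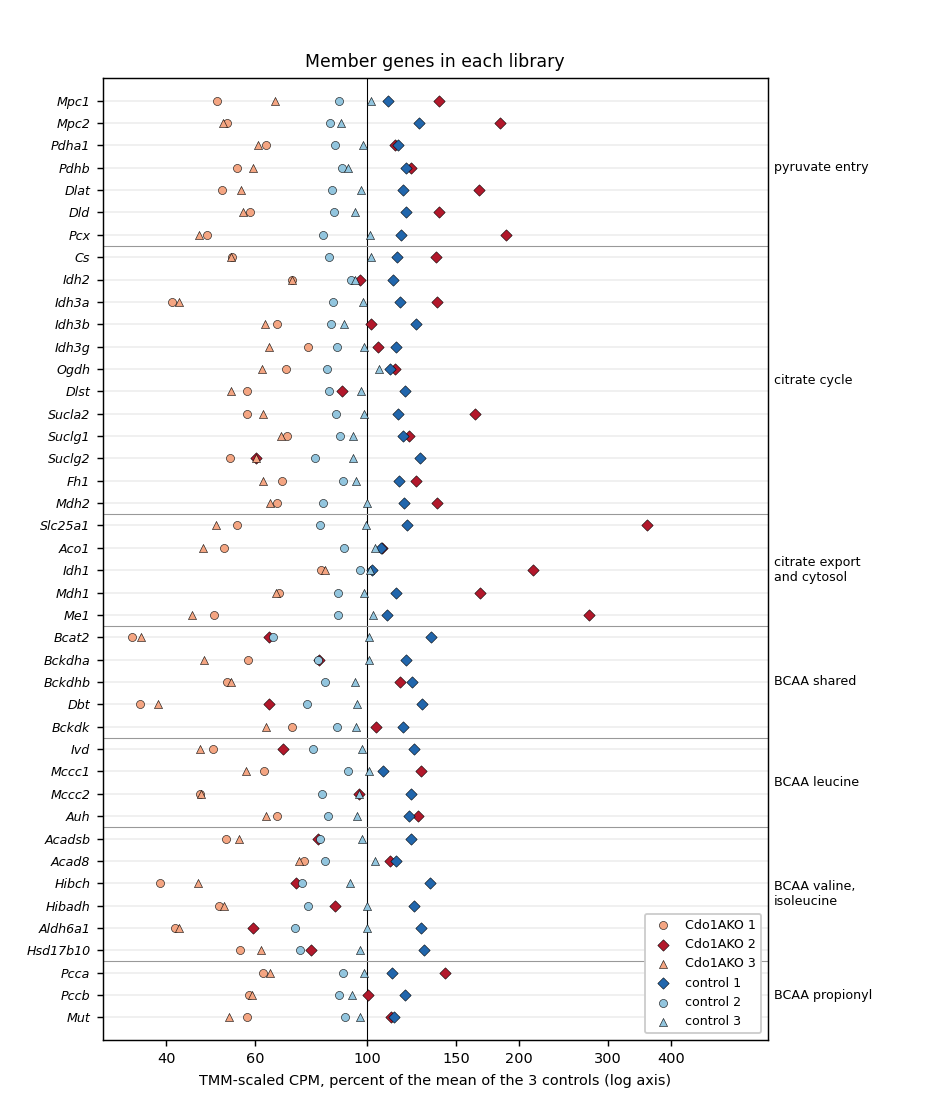
Level of each of the 42 genes in each of the 6 libraries, as percent of the mean of the 3 controls, on a log axis; each symbol is 1 library, and genes are grouped by role. Cdo1AKO 1 and 3 lie below all controls for every gene, while Cdo1AKO 2 reaches 358% for Slc25a1 and lies at 59.5% for Aldh6a1.

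Cdo1AKO 1 and 3 lay below all 3 controls for all 42 members, against 27.0% of all tested genes, and these libraries were close to each other, with Cdo1AKO 1 at 0.767 to 1.22 times Cdo1AKO 3. Cdo1AKO 2 had a different profile. It lay above all 3 controls for 21 members (36.3% of all tested genes): 6 of 7 for pyruvate entry, 7 of 12 for the citrate cycle, 5 of 5 for citrate export and 3 of 18 for branched-chain breakdown. It lay below all 3 controls for 7 members (31.5% of all tested genes), Suclg2 of the cycle and 6 branched-chain genes. The same 7 members are those whose groups did not overlap, all lower in Cdo1AKO, where 9.73% of all tested genes were lower without overlap. No member was higher without overlap, against 8.87% of all tested genes. Without Cdo1AKO 2, all 42 log2 fold changes were negative (49.1% of all genes in that fit) and the medians of the branches came closer together, with -0.89 for branched-chain breakdown, -0.62 for the cycle, -0.80 for pyruvate entry and -0.92 for citrate export. Branched-chain breakdown then no longer had the lowest median. In that fit, which has 2 Cdo1AKO libraries, all 42 members were at an unadjusted p under 0.05, where 15.5% of all genes were lower at that level, and 0 genes passed the adjusted edgeR test. Without control 1, the highest control for all 42 members, 35 of 42 were negative (44.8% of all genes in that fit), with medians of -0.44 for branched-chain breakdown, -0.20 for the cycle, -0.10 for pyruvate entry and 0.33 for citrate export.

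Markers of adipocytes went with these values in Cdo1AKO 1 and 3, and only in part in Cdo1AKO 2. In Cdo1AKO 2 the marker median was 97.1% of the control mean. The medians of the members there were 213% for citrate export, 139% for pyruvate entry, 117% for the cycle and 91.3% for branched-chain breakdown. All 10 adipocyte markers had a negative log2 fold change, and 3 of them were lower without overlap, against 9.73% of all tested genes. The summed level of the markers was 22512, 45528 and 23653 CPM in Cdo1AKO 1 to 3, against 49380.3, 34708 and 40623 CPM in control 1 to 3, so Cdo1AKO 2 was within the controls and the other Cdo1AKO libraries below them. In bulk tissue fewer adipocytes and less RNA per adipocyte cannot be told apart. Relative to the geometric mean of the 10 adipocyte markers of the same library, 28 of 42 members were higher in Cdo1AKO on average, where 90.8% of the tested genes with counts in every library were, including all 7 of pyruvate entry and 9 of 12 of the cycle, while 10 of 18 branched-chain genes were lower. On that scale Bcat2, Dbt, Ivd, Hibch, Hibadh and Aldh6a1 were lower in every Cdo1AKO library than in any control, as were 1.56% of all tested genes. Idh1, Mdh1, Bckdk, Acad8 and 7 others were higher in every one, as were 28.0% of all tested genes. The level of the 10 markers themselves differed by -0.56 on the log2 scale.

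Markers of other cells were higher in part. Macrophage markers, 8 of 8 with a positive log2 fold change, summed to 814 to 849 CPM in Cdo1AKO, against 523 to 750.2 CPM in controls, while T cell markers, 8 of 8 positive, were at 16.1 to 1016 CPM in Cdo1AKO and 15.6 to 355 CPM in controls. Higher without overlap were 4 of the macrophage markers and 0 of the T cell markers, against 8.87% of all tested genes. Of 10 skeletal muscle markers 5 were higher without overlap (8.87% of all tested genes), and 4 of these were among the 6 that passed the filter on low counts. The 10 summed to 118 to 208 CPM in Cdo1AKO and 48.6 to 122 CPM in controls, with Myh4 at 0 in all 6 libraries. Brown fat markers (6) summed to 23.4 to 75.4 CPM in Cdo1AKO and 66.1 to 121 CPM in controls, and Ucp1 had 4, 8 and 5 counts in Cdo1AKO and 14, 17 and 9 in controls. They did not share a direction: of the 4 that passed the filter, 2 had a negative and 2 a positive log2 fold change (-1.39 to 1.06). Mammary epithelial markers (8) summed to 0.257 to 3.07 CPM in Cdo1AKO and 1.71 to 2.20 CPM in controls, with Csn3 at 0 throughout. The 13 mRNAs encoded in mitochondrial DNA had a median log2 fold change of -0.27, and the library medians over them stood at 53.8%, 133% and 57.0% of the control mean in Cdo1AKO 1 to 3, close to those of pyruvate entry at 52.8%, 139% and 56.9%. The part of these cells and transcripts in the members' values was not tested.

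**Figure D2:**
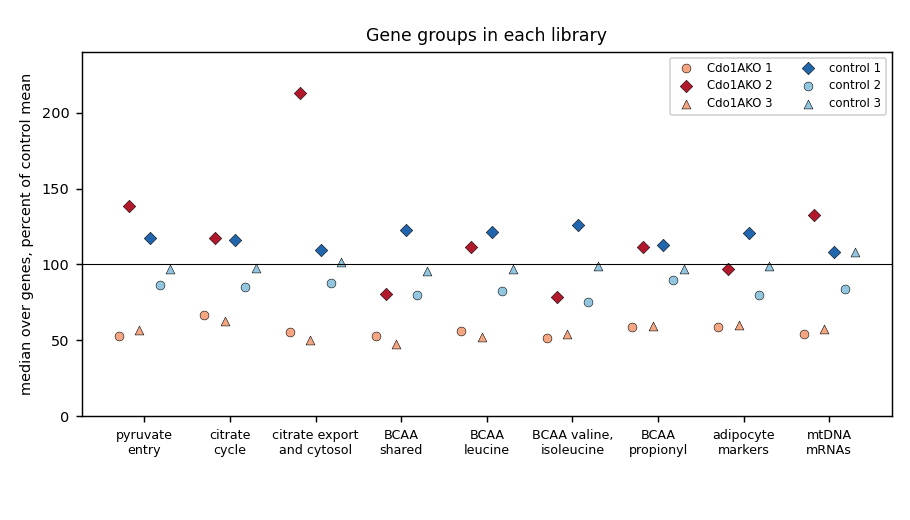
Median over the genes of each group of the level in percent of the control mean, for each of the 6 libraries, with adipocyte markers and mRNAs encoded in mitochondrial DNA at the right; each symbol is 1 library and no error is drawn. In Cdo1AKO 2 the median is 213% for citrate export and 78.8% for the valine and isoleucine route.

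The stretches before the transcription start are shown for 3 of the 7 members whose groups did not overlap (Aldh6a1, Ivd and Suclg2). They are also shown for 3 of the 21 members with Cdo1AKO 2 above all controls (Slc25a1, Me1 and Pcx). Cdo1AKO 1 and 3 lay below all controls in both sets, which differ in Cdo1AKO 2. The choice followed no ranking: Idh1, at 213% of the control mean in Cdo1AKO 2 against 188% for Pcx, is not printed. The sequences are RefSeq's (GRCm38.p6), 5′ to 3′ on the gene's strand, from up to 250 bases before the start and without annotated exon bases. Capitals mark CCAAT boxes (CCAAT), GC boxes (GGGCGG) and E-boxes (CACGTG) on either strand; neighbouring GC boxes may share bases. The members lower in all Cdo1AKO libraries were these:
Aldh6a1 (chr12:84451025-84451274, minus strand): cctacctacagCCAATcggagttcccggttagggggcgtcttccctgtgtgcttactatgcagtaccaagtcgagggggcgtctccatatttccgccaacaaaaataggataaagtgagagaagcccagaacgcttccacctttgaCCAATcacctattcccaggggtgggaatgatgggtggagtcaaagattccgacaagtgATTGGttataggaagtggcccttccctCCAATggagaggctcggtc
Ivd (chr2:118861744-118861953, plus strand): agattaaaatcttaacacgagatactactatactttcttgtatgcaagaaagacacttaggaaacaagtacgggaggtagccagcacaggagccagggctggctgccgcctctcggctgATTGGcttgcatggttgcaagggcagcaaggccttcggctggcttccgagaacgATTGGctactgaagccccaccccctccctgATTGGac
Suclg2 (chr6:95718847-95719096, minus strand): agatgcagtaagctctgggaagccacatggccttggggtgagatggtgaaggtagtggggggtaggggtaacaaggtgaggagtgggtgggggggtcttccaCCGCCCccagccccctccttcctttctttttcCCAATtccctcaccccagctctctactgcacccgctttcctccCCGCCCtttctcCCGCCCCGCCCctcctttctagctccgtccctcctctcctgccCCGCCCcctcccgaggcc
The members high in Cdo1AKO 2 were these:
Slc25a1 (chr16:17928220-17928469, minus strand): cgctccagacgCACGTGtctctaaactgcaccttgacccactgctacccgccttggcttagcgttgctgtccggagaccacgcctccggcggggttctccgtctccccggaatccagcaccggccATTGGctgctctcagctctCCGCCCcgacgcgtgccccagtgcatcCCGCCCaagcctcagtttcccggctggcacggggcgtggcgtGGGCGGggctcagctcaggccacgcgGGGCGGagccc
Me1 (chr9:86695954-86696164, minus strand): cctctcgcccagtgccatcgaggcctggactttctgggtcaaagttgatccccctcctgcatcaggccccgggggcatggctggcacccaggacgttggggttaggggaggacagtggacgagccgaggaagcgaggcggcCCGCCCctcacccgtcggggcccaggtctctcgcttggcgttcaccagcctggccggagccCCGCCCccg
Pcx (chr19:4510222-4510471, plus strand): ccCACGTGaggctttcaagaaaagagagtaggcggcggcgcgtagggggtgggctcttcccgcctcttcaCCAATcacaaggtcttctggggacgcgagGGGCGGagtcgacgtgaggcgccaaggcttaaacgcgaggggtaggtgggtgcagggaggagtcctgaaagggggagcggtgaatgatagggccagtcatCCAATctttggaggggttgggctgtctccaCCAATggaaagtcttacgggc

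The stretches of Aldh6a1 and Ivd hold 4 and 3 CCAAT boxes and no GC box, and that of Suclg2 holds 1 CCAAT box and 5 GC boxes. Among members without overlap that are not printed, the stretch of Hibch held GC boxes and no CCAAT box. That of Acadsb, 79 bases long, held none of the motifs. Slc25a1 has 1 E-box, 1 CCAAT box and 4 GC boxes, Pcx 1 E-box, 3 CCAAT boxes and 1 GC box, and Me1 2 GC boxes. Pcx, Me1 and Aldh6a1 have another promoter entry each, and only the first listed is printed. In the entries not printed, the stretch of Pcx held none of the motifs searched. Those of Me1 and Aldh6a1 each held a CCAAT box and no GC box. Which start is used in this tissue was not tested. Motifs were counted over the full 250 bases before the start, exon bases included, which is a wider window than the stretches printed. Over the 52 promoter entries of the 39 members in the table, some of which overlap each other, a CCAAT box was found in 30 and a GC box in 30, against 33.8% and 32.7% of all 32851 entries. An E-box was found in 6 (6.02% of all entries), a cyclic AMP element (TGACGTCA) in 4 (1.55%), an NRF1 motif in 3 (3.74%) and a CACCC box (CCACACCC) in 1 (3.20%). Counted by gene, the E-box was in 4 of the 39 members and the cyclic AMP element in 2, Mdh2 and Ogdh. Ogdh has several entries that overlap, which raise the counts by entry. The CCAAT box was in 25 of the 39 and the GC box in 27. No share of all genes was counted. The letters CAAGGTCA of the oestrogen-related receptor element (1.33% of all entries), TCACCCCAC of the sterol element (0.496%) and TTATGTAA of the D-box (0.819%) were in none of the 52, nor was the PPAR direct repeat (0.0335%). These matches describe letters in a window and do not show binding.

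Pyruvate entry was lower in Cdo1AKO 1 and 3 and higher in Cdo1AKO 2. Mpc1 and Mpc2 encode the mitochondrial pyruvate carrier, Pdha1, Pdhb, Dlat and Dld the subunits of the pyruvate dehydrogenase complex, and Pcx pyruvate carboxylase, which makes oxaloacetate. None of the 7 passed by edgeR, where 0% of all genes did. All 7 overlapped between the groups, where 9.73% of all tested genes were lower and 8.87% higher without overlap. Pdha1, the catalytic alpha subunit, had 136, 246 and 132 CPM in Cdo1AKO 1 to 3, against 249.8, 187 and 213 CPM in control 1 to 3. Cdo1AKO 2 came close to the highest control, and the log2 fold change was -0.34 ± 0.28 (SE, n = 3 libraries a group; adjusted p = 0.702 by edgeR). Pdhb, the beta subunit, had 96.2, 213 and 104 CPM in Cdo1AKO 1 to 3, against 208, 155 and 159 CPM in control 1 to 3, and Dld, the dehydrogenase that also serves the other 2-oxoacid complexes, had 112, 264 and 108 CPM in Cdo1AKO 1 to 3, against 228, 164 and 180.0 CPM in control 1 to 3. Their log2 fold changes were -0.34 ± 0.34 and -0.24 ± 0.38, with adjusted p = 0.744 and 0.845 by edgeR, and the subunits of the complex kept one order of libraries, Cdo1AKO 2 or control 1 on top and Cdo1AKO 1 and 3 at the bottom. Leaving out Cdo1AKO 2 gave -0.69 for Pdha1, -0.80 for Pdhb and -0.79 for Dld.

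Pcx, Mpc2 and Dlat had wider spread in Cdo1AKO. These 3 genes lie outside the rule for values by library and were chosen after the values were seen. Pcx (ENSMUSG00000024892, mm10 chromosome 19, 4510472 to 4621752, plus strand) had 375, 1462 and 361 CPM in Cdo1AKO 1 to 3, against 905, 635 and 787 CPM in control 1 to 3. Mpc2 had 73.2, 255 and 72.1 CPM in Cdo1AKO 1 to 3, against 176, 117 and 123 CPM in control 1 to 3, and Dlat, the acetyltransferase core of the complex, 69.0, 223 and 75.5 CPM in Cdo1AKO 1 to 3, against 158, 114 and 130.13 CPM in control 1 to 3. In all 3 Cdo1AKO 2 lay above every control while Cdo1AKO 1 and 3 lay below, and the log2 fold changes near 0 (-0.08 ± 0.59 for Pcx, -0.06 ± 0.53 for Mpc2 and -0.13 ± 0.48 for Dlat, SE) average these opposite values. Without Cdo1AKO 2 they were -1.08, -0.93 and -0.89. Mpc1, the least abundant of the 7, had a log2 fold change of -0.24 ± 0.38, and of -0.78 without Cdo1AKO 2.

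Within-library ratios of counts, which do not depend on the scaling, show the same split. The log2 ratio of Pcx to Pdha1 was 1.46, 2.57 and 1.45 in Cdo1AKO 1 to 3, against 1.86, 1.76 and 1.89 in control 1 to 3. It was lower in Cdo1AKO 1 and 3 than in every control and higher in Cdo1AKO 2, so the group means differed by -0.01 (two-sided exact permutation test p = 1), and by -0.38 without Cdo1AKO 2. Of 8 ratios of paired members tested in this way, 4 did not overlap between the groups, each with an exact permutation p = 0.10, the smallest that 3 against 3 libraries allow, and 0.20 after Benjamini-Hochberg adjustment over the 8. The share of other gene pairs without overlap was not counted.

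**Figure D3:**
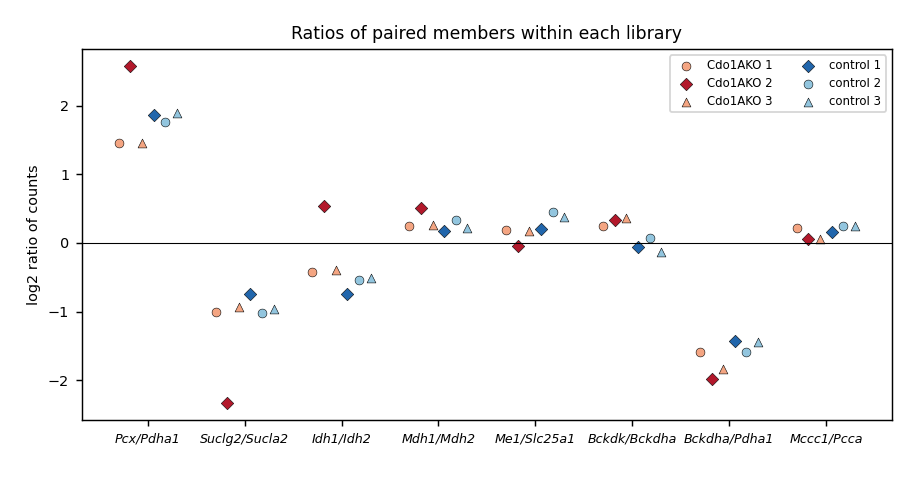
Log2 ratio of the counts of 2 members within each library, for the 8 pairs named on the horizontal axis; each symbol is 1 library. Bckdk/Bckdha lies between 0.24 and 0.37 in Cdo1AKO and between -0.13 and 0.08 in controls.

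Regulators of the pyruvate dehydrogenase complex belong to a list of 14 other genes of pyruvate handling. At an unadjusted p under 0.05, 3 of the 14 were lower (5.71% of all tested genes) and 1 was higher (4.66% of all tested genes), and 0 passed with adjustment by edgeR. Pdk2, a kinase that switches the complex off, had 82.5, 71.9 and 69.3 CPM in Cdo1AKO 1 to 3, against 299.6, 118 and 215 CPM in control 1 to 3, with a log2 fold change of -1.499 ± 0.34 (SE; adjusted p = 0.333 by edgeR, 0.0436 with a lymph node term). Pdp2, a phosphatase that switches the complex on, had 14.3, 17.7 and 14.1 CPM in Cdo1AKO 1 to 3, against 28.1, 25.3 and 25.2 CPM in control 1 to 3, and Pdpr, the regulatory subunit of that phosphatase, had 28.5, 31.3 and 31.3 CPM in Cdo1AKO 1 to 3, against 46.4, 42.6 and 46.6 CPM in control 1 to 3. These 3 genes, chosen for their small p, were lower in every Cdo1AKO library than in any control, as were 9.73% of all tested genes. The other kinases and phosphatase of the list overlapped between the groups, with log2 fold changes of 0.40 ± 0.38 for Pdk1, 0.64 ± 0.47 for Pdk3, -0.64 ± 0.40 for Pdk4 and 0.16 ± 0.20 for Pdp1, and 8 of the 14 listed genes had a positive value. The log2 fold changes were -0.77 ± 0.16 for Pdp2 and -0.57 ± 0.13 for Pdpr, with adjusted p = 0.309 and 0.323 by edgeR. DESeq2 called 3 of the 14 lower, Pdk2, Pdp2 and Pdpr, and 0 higher. Of all genes with an adjusted p, it called 1.66% lower and 0.895% higher.

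Citrate cycle genes were all lower on average, most of them by little beside their error. The 12 log2 fold changes ran from -0.79 to -0.08, and 1 gene, Suclg2, was at an unadjusted p under 0.05. Of all tested genes 5.71% were lower at that level. Suclg2 (ENSMUSG00000061838, mm10 chromosome 6, 95473009 to 95718800, minus strand) encodes the GTP-specific beta subunit of succinyl-CoA ligase. This enzyme uses succinyl-CoA, the form in which carbon from valine, isoleucine and propionate enters the cycle. Suclg2 had 41.3, 46.5 and 46.6 CPM in Cdo1AKO 1 to 3, against 98.3, 61.0 and 72.5 CPM in control 1 to 3. All 3 Cdo1AKO libraries, Cdo1AKO 2 included, stood at nearly one level below every control, and the log2 fold change was -0.79 ± 0.20 (SE; adjusted p = 0.345 by edgeR). Sucla2, the ATP-specific beta subunit of the same enzyme, had 82.9, 234 and 89.4 CPM in Cdo1AKO 1 to 3, against 165, 124 and 141 CPM in control 1 to 3, so Cdo1AKO 2 was the highest of all libraries for it. This gene, too, was singled out after its values were seen. The log2 ratio of Suclg2 to Sucla2 was -1.004, -2.33 and -0.94 in Cdo1AKO 1 to 3, against -0.75, -1.03 and -0.96 in control 1 to 3, and the group difference of -0.51 (exact permutation test p = 0.50) became -0.06 without Cdo1AKO 2. Suclg1, the alpha subunit that both enzymes share, had a log2 fold change of -0.22 ± 0.27. Leaving out Cdo1AKO 2, the log2 fold change was -0.73 for Sucla2 and -0.54 for Suclg1.

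Dlst, the succinyltransferase core of the 2-oxoglutarate dehydrogenase complex, had 159, 244 and 147 CPM in Cdo1AKO 1 to 3, against 325, 231 and 267 CPM in control 1 to 3. Cdo1AKO 2 lay inside the controls and the other Cdo1AKO libraries below them, with a log2 fold change of -0.58 ± 0.25 (SE; adjusted p = 0.502 by edgeR). Idh2, the NADP-dependent mitochondrial isocitrate dehydrogenase, had 165, 224 and 165 CPM in Cdo1AKO 1 to 3, against 261, 216 and 219 CPM in control 1 to 3, a log2 fold change of -0.33 ± 0.19 (adjusted p = 0.596 by edgeR). The remaining genes of the cycle all overlapped between the groups. Of all tested genes 9.73% were lower and 8.87% higher without overlap. Citrate synthase (Cs), the entry enzyme, had a log2 fold change of -0.30 ± 0.41, and the subunits of the NAD-dependent isocitrate dehydrogenase had -0.44 ± 0.50 (Idh3a, catalytic), -0.38 ± 0.26 (Idh3b) and -0.29 ± 0.23 (Idh3g). Idh3a spread widest of these, at 41.1%, 138% and 42.5% of the control mean in Cdo1AKO 1 to 3. Ogdh, the first subunit of the 2-oxoglutarate complex, fumarase (Fh1) and malate dehydrogenase 2 (Mdh2) had log2 fold changes of -0.30 ± 0.28, -0.24 ± 0.30 and -0.16 ± 0.34. Without Cdo1AKO 2 these genes were at -0.89 for Cs, -1.26 for Idh3a, -0.63 for Idh3b, -0.51 for Idh3g, -0.61 for Ogdh, -0.62 for Fh1 and -0.61 for Mdh2. Without control 1 they ran from -0.33 for Idh3a to -0.03 for Mdh2. No strand setting of the counting is known, and without one reads of Idh3b and of Nop56, which overlaps it on the opposite strand, cannot be told apart where they overlap (19908 and 6743 counts in all). The same holds for Fh1 and Kmo (11225 and 1440 counts), for Bckdha and B3gnt8 (6684 and 1038 counts) and for Pcca and Ggact (10174 and 1206 counts). Other members overlap genes on the opposite strand too.

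Other genes linked to the cycle differed in both directions. Of 17 listed, 2 were lower (5.71% of all tested genes) and 1 was higher (4.66% of all tested genes) at an unadjusted p under 0.05. Dhtkd1, which oxidises 2-oxoadipate from lysine and tryptophan breakdown, had 15.2, 18.7 and 15.5 CPM in Cdo1AKO 1 to 3, against 34.5, 29.6 and 32.5 CPM in control 1 to 3, a log2 fold change of -0.96 ± 0.16 (SE; adjusted p = 0.230 by edgeR). Slc25a22, a mitochondrial glutamate carrier, had 109, 84.7 and 95.1 CPM in Cdo1AKO 1 to 3, against 207, 147 and 187 CPM in control 1 to 3, and Ogdhl, a relative of Ogdh with low counts here, had 1.85, 3.73 and 3.57 CPM in Cdo1AKO 1 to 3, against 0.982, 0.802 and 0.751 CPM in control 1 to 3. For all 3 genes, chosen for their small p, the groups did not overlap (9.73% of all tested genes lower and 8.87% higher). DESeq2 called 2 of the 17 lower (1.66% of the genes with an adjusted p) and 1, Ogdhl, higher (0.895%). By edgeR the log2 fold change was 1.84 ± 0.39 for Ogdhl and -0.91 ± 0.18 for Slc25a22.

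The genes of citrate export and its cytosolic use held the widest spread of all members, and most of it came with Cdo1AKO 2. Slc25a1 is the carrier that exports citrate from mitochondria, Aco1 and Idh1 are cytosolic aconitase and isocitrate dehydrogenase, Mdh1 cytosolic malate dehydrogenase and Me1 malic enzyme, which makes NADPH for fatty acid synthesis. Slc25a1 had 109.7, 710.2 and 99.7 CPM in Cdo1AKO 1 to 3, against 238, 159.8 and 198 CPM in control 1 to 3. Its level in Cdo1AKO 2 was 6.78 times the mean of Cdo1AKO 1 and 3 and above every control, while those 2 libraries were below every control. The log2 fold change of 0.63 ± 0.78 (SE; adjusted p = 0.801 by edgeR) turned to -0.92 without Cdo1AKO 2. Me1, chosen after its values were seen, showed the same order of libraries with 125, 689 and 113 CPM in Cdo1AKO 1 to 3, against 275, 219 and 258 CPM in control 1 to 3, and its log2 fold change of 0.30 ± 0.72 turned to -1.08. Slc25a10, the dicarboxylate carrier of the list of other cycle genes and also chosen after the fact, had 82.8, 553 and 76.5 CPM in Cdo1AKO 1 to 3, against 134, 141 and 150.1 CPM in control 1 to 3.

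Idh1 had 124, 325 and 126 CPM in Cdo1AKO 1 to 3, against 156, 148 and 154 CPM in control 1 to 3. Controls were within a few CPM of each other, Cdo1AKO 2 stood at 213% of their mean and Cdo1AKO 1 and 3 slightly below them, and the log2 fold change of 0.33 ± 0.40 turned to -0.29 without Cdo1AKO 2. Aco1, the most negative of the 5, had 112, 231 and 102 CPM in Cdo1AKO 1 to 3, against 230.0, 194 and 224 CPM in control 1 to 3, a log2 fold change of -0.54 ± 0.33 (adjusted p = 0.623 by edgeR) and of -1.01 without Cdo1AKO 2. Mdh1 had a log2 fold change of -0.00098 ± 0.40, with Cdo1AKO 2 at 167% of the control mean and the other Cdo1AKO libraries at 66.9% and 66.0%, and it had -0.59 without Cdo1AKO 2. Set against their partners in the same library, these genes differed as follows. The log2 ratio of cytosolic Idh1 to mitochondrial Idh2 was -0.42, 0.54 and -0.39 in Cdo1AKO 1 to 3, against -0.75, -0.55 and -0.50 in control 1 to 3, higher in every Cdo1AKO library than in any control (exact permutation p = 0.10). The difference was 0.51, and 0.20 without Cdo1AKO 2. The log2 ratio of Me1 to Slc25a1 was 0.19, -0.04 and 0.18 in Cdo1AKO 1 to 3, against 0.21, 0.46 and 0.38 in control 1 to 3, lower in every Cdo1AKO library (difference -0.24, exact permutation p = 0.10). The ratio of Mdh1 to Mdh2 overlapped between the groups, with a difference of 0.10 (exact permutation p = 0.40).

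**Figure D4:**
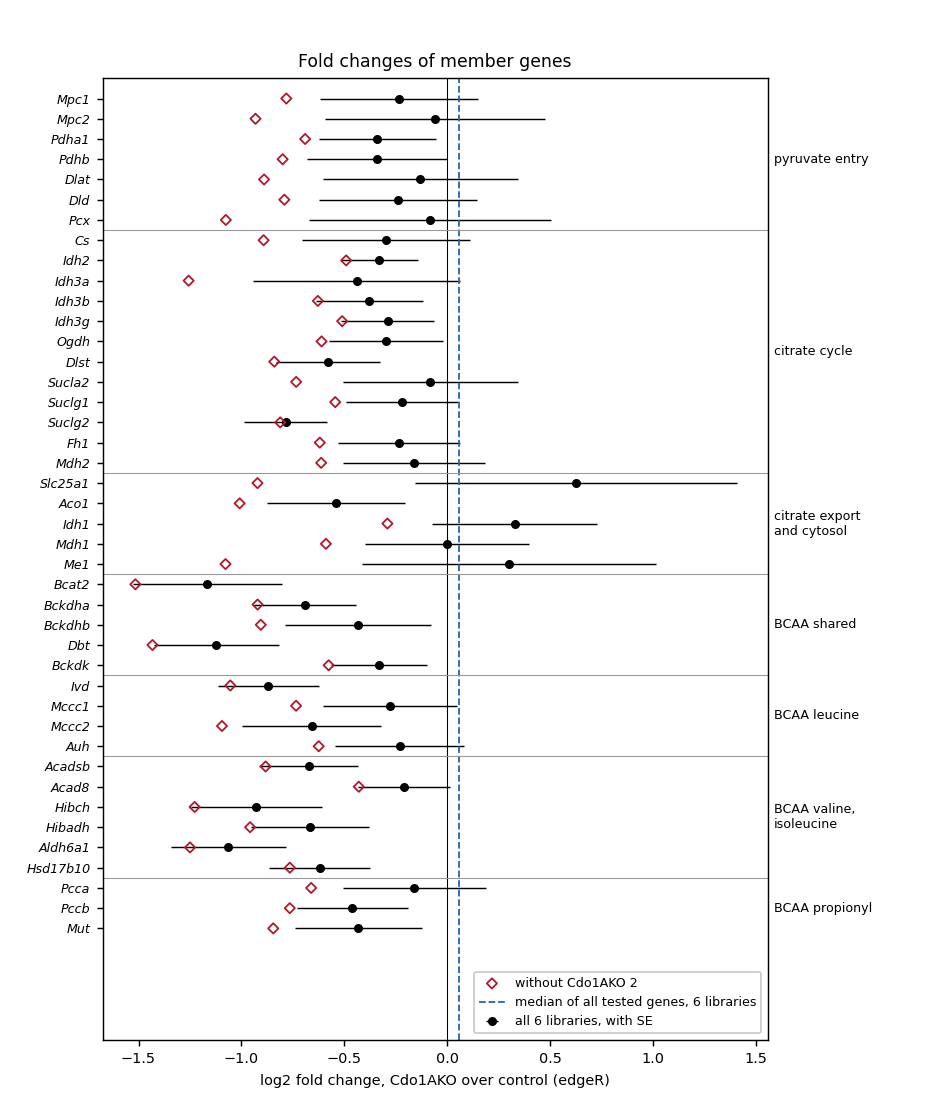
Log2 fold change of Cdo1AKO over control for each member by edgeR (filled circles with SE, 6 libraries) and without Cdo1AKO 2 (open diamonds); the dashed line is the median of all tested genes at 0.06. Diamonds lie left of the circles for all 42 genes, by the most for Slc25a1 (0.63 and -0.92) and by the least for Suclg2 (-0.79 and -0.81).

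The first steps of branched-chain breakdown were lower in Cdo1AKO, and Bcat2 and Dbt had the 2 most negative log2 fold changes of all members. Bcat2 is the mitochondrial transaminase, Bckdha, Bckdhb and Dbt are the E1 alpha, E1 beta and E2 subunits of the branched-chain 2-oxoacid dehydrogenase complex, and Bckdk is the kinase that switches the complex off. Bcat2 (ENSMUSG00000030826, mm10 chromosome 7, 45570153 to 45589711, plus strand) had 82.3, 153 and 85.5 CPM in Cdo1AKO 1 to 3, against 321, 156 and 243 CPM in control 1 to 3. Every Cdo1AKO library was below every control, with Cdo1AKO 2 just under control 2, and the log2 fold change was -1.17 ± 0.36 (SE; adjusted p = 0.385 by edgeR). Dbt (ENSMUSG00000000340, mm10 chromosome 3, 116513070 to 116549981, plus strand) had 47.5, 85.6 and 51.7 CPM in Cdo1AKO 1 to 3, against 172, 102 and 128 CPM in control 1 to 3. Cdo1AKO 2 was again between the other Cdo1AKO libraries and the controls, and the log2 fold change was -1.12 ± 0.30 (SE; adjusted p = 0.359 by edgeR and 0.0411 by DESeq2). Bckdha had 45.1, 62.4 and 36.9 CPM in Cdo1AKO 1 to 3, against 92.8, 62.2 and 78.5 CPM in control 1 to 3, where Cdo1AKO 2 and control 2 were level, with a log2 fold change of -0.69 ± 0.25 (adjusted p = 0.431 by edgeR).

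The subunits of the complex were not lower by the same amount. Bckdhb had a log2 fold change of -0.43 ± 0.35 and Bckdk of -0.33 ± 0.23, both with overlapping groups. Without Cdo1AKO 2 they were -0.91 for Bckdhb and -0.58 for Bckdk. Per kilobase of listed gene length, the mean level of Dbt was 18.4 ± 6.23 CPM per kb in Cdo1AKO and 40.05 ± 10.6 in controls (SD, n = 3), that of Bckdha 25.4 ± 6.84 and 41.0 ± 8.07, that of Bckdhb 53.4 ± 26.0 and 72.0 ± 14.8, and that of Bckdk 16.2 ± 4.47 and 20.4 ± 3.28. Of these 4, Bckdhb had the highest mean in both groups on that scale. The log2 ratio of the kinase Bckdk to its substrate subunit Bckdha was 0.24, 0.33 and 0.37 in Cdo1AKO 1 to 3, against -0.06, 0.08 and -0.13 in control 1 to 3. It was higher in every Cdo1AKO library than in any control, by 0.35 on average (exact permutation p = 0.10) and by 0.31 to 0.41 with any 1 library left out. The log2 ratio of Bckdha to Pdha1, the matching subunits of the branched-chain and pyruvate complexes, was -1.60, -1.98 and -1.84 in Cdo1AKO 1 to 3, against -1.43, -1.59 and -1.44 in control 1 to 3. It was lower in every Cdo1AKO library, although Cdo1AKO 1 and control 2 lay close, with a difference of -0.32 (exact permutation p = 0.10; -0.42 to -0.23 with any 1 library left out).

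On the leucine route, Ivd, isovaleryl-CoA dehydrogenase, was the only one of the 4 genes at an unadjusted p under 0.05. Of all tested genes 5.71% were lower at that level. Ivd (ENSMUSG00000027332, mm10 chromosome 2, 118861954 to 118882909, plus strand) had 200.2, 275 and 188 CPM in Cdo1AKO 1 to 3, against 500.4, 315 and 394 CPM in control 1 to 3. The groups did not overlap, and the log2 fold change was -0.87 ± 0.25 (SE; adjusted p = 0.362 by edgeR). Mccc2, the beta subunit of methylcrotonyl-CoA carboxylase, had 58.3, 121 and 58.7 CPM in Cdo1AKO 1 to 3, against 153, 102 and 121 CPM in control 1 to 3, and Mccc1, its biotin-carrying alpha subunit, had 74.1, 151 and 68.3 CPM in Cdo1AKO 1 to 3, against 128, 109 and 119 CPM in control 1 to 3. Cdo1AKO 2 was level with control 3 for Mccc2 and exceeded every control for Mccc1, with log2 fold changes of -0.66 ± 0.34 and -0.28 ± 0.32 (adjusted p = 0.566 and 0.790 by edgeR). Auh, the hydratase that follows, had -0.23 ± 0.31. Without Cdo1AKO 2 the log2 fold changes were -1.09 for Mccc2, -0.73 for Mccc1 and -0.62 for Auh. Mccc1 set against Pcca, the matching biotin-carrying subunit of propionyl-CoA carboxylase, gave overlapping ratios, with a log2 difference of -0.11 (exact permutation p = 0.20).

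Of the 6 genes of the valine and isoleucine routes, all had negative log2 fold changes, as had 44.0% of all tested genes. At an unadjusted p under 0.05 there were 4, where 5.71% of all tested genes were lower. The difference from the leucine route was not tested. Aldh6a1, methylmalonate semialdehyde dehydrogenase of the valine route, had 277, 396 and 282 CPM in Cdo1AKO 1 to 3, against 852, 479 and 667 CPM in control 1 to 3. Aldh6a1 (ENSMUSG00000021238, mm10 chromosome 12, 84430717 to 84451004, minus strand) had the highest mean level per kilobase of the branched-chain members in controls, with 55.1 ± 11.6 CPM per kb in Cdo1AKO and 115 ± 32.2 in controls (SD, n = 3). In Cdo1AKO the mean of Pccb, 70.4 ± 23.3 CPM per kb, lay above it, within the spread of Pccb. The groups of Aldh6a1 did not overlap, and the log2 fold change was -1.06 ± 0.28 (SE; adjusted p = 0.345 by edgeR and 0.0223 by DESeq2). Hibch, the hydrolase before it on the valine route, had 70.1, 130.14 and 83.3 CPM in Cdo1AKO 1 to 3, against 239.9, 134 and 166 CPM in control 1 to 3. Acadsb, the short/branched-chain acyl-CoA dehydrogenase of the isoleucine route, had 129, 195 and 136 CPM in Cdo1AKO 1 to 3, against 298, 197 and 238 CPM in control 1 to 3. Neither overlapped, though Cdo1AKO 2 was within a few CPM of control 2 for both, and the log2 fold changes were -0.93 ± 0.32 and -0.67 ± 0.24 (adjusted p = 0.417 and 0.431 by edgeR). Hibadh, which acts between Hibch and Aldh6a1, had -0.67 ± 0.29, and Hsd17b10, an isoleucine route enzyme that also serves mitochondrial RNA processing, had -0.62 ± 0.25 (adjusted p = 0.471 by edgeR). Acad8, isobutyryl-CoA dehydrogenase and the first enzyme that is specific to valine, had the smallest difference of the 6, -0.21 ± 0.22, and -0.43 without Cdo1AKO 2.

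The propionyl-CoA steps, where the valine and isoleucine routes join, had a median log2 fold change of -0.43. It was -0.67 for the valine and isoleucine routes and -0.47 for the leucine route, and the difference between them was not tested. Pccb, the beta subunit of propionyl-CoA carboxylase, had 157, 269.8 and 159 CPM in Cdo1AKO 1 to 3, against 319, 236 and 251 CPM in control 1 to 3, and Mut, methylmalonyl-CoA mutase, had 80.1, 154 and 73.8 CPM in Cdo1AKO 1 to 3, against 156, 125 and 134 CPM in control 1 to 3. In both Cdo1AKO 2 lay inside the controls and the other Cdo1AKO libraries below, with log2 fold changes of -0.46 ± 0.27 and -0.43 ± 0.31 (adjusted p = 0.604 and 0.668 by edgeR). Pcca, the alpha subunit, had -0.16 ± 0.35, with Cdo1AKO 2 above every control at 142% of their mean. Without Cdo1AKO 2 the values were -0.76 for Pccb, -0.85 for Mut and -0.66 for Pcca.

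Other genes of branched-chain handling were lower in part. Of 18 listed, 4 were lower (5.71% of all tested genes) and 1, Abat, was higher (4.66% of all tested genes) at an unadjusted p under 0.05. Slc25a44, the carrier that brings branched-chain amino acids into mitochondria, had 59.3, 80.5 and 62.1 CPM in Cdo1AKO 1 to 3, against 129, 98.4 and 123 CPM in control 1 to 3, a log2 fold change of -0.80 ± 0.19 (SE; adjusted p = 0.345 by edgeR). Klf15, a transcription factor known in mouse muscle and heart for raising branched-chain breakdown genes, had 42.0, 78.2 and 44.8 CPM in Cdo1AKO 1 to 3, against 229, 73.9 and 133 CPM in control 1 to 3. For Klf15 Cdo1AKO 2 lay just above control 2, and the log2 fold change was -1.40 ± 0.46 (SE; adjusted p = 0.408 by edgeR). Abat, 4-aminobutyrate aminotransferase, had 53.3, 41.5 and 54.2 CPM in Cdo1AKO 1 to 3, against 21.0, 38.8 and 32.0 CPM in control 1 to 3, higher in every Cdo1AKO library than in any control. For it edgeR gave a log2 fold change of 0.70 ± 0.25 with an adjusted p of 0.433. Of 10 genes for lipoic acid, biotin and thiamine cofactors, which these complexes need, 0 were lower and 0 higher at an unadjusted p under 0.05. Of all tested genes 5.71% were lower and 4.66% higher at that level. The 3 with the lowest p were the biotin ligase Hlcs with 0.33 ± 0.17, the thiamine transporter Slc19a2 with -0.55 ± 0.33 and the lipoic acid synthase Lias with -0.35 ± 0.23 (-0.61 without Cdo1AKO 2).

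The libraries can be read in pairs of like lymph node content, a reading chosen after the data were seen. Cdo1AKO 1 and 3 are set against control 2 and 3, which hold lymph node transcripts, and Cdo1AKO 2 against control 1, which lack them. The ratios carry a pseudocount of 0.5 CPM. The second is 1 library against 1 and has no replicate check. All 42 members were lower in the first pairing (50.0% of all tested genes) and 21 of 42 in the second (45.1%). Branched-chain genes were lower in both for 15 of 18 members, the cycle for 5 of 12, pyruvate entry for 1 of 7 and citrate export for 0 of 5, where 26.3% of all tested genes were lower in both. By over 0.5 on the log2 scale in both, there were 9 branched-chain genes, 1 cycle gene and no other member, against 4.31% of all tested genes. Aldh6a1 was at 0.489 times its controls with lymph node transcripts and 0.465 times without, Bcat2 at 0.422 and 0.478 times, Dbt at 0.434 and 0.499 times, and Ivd at 0.548 and 0.549 times. These genes had nearly the same ratio in both kinds of library. Slc25a1, by contrast, was at 0.587 and 2.98 times, Me1 at 0.499 and 2.503 times, and Pcx at 0.517 and 1.61 times. Whether the ratios of these genes differ between the kinds of library was not tested.

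**Figure D5:**
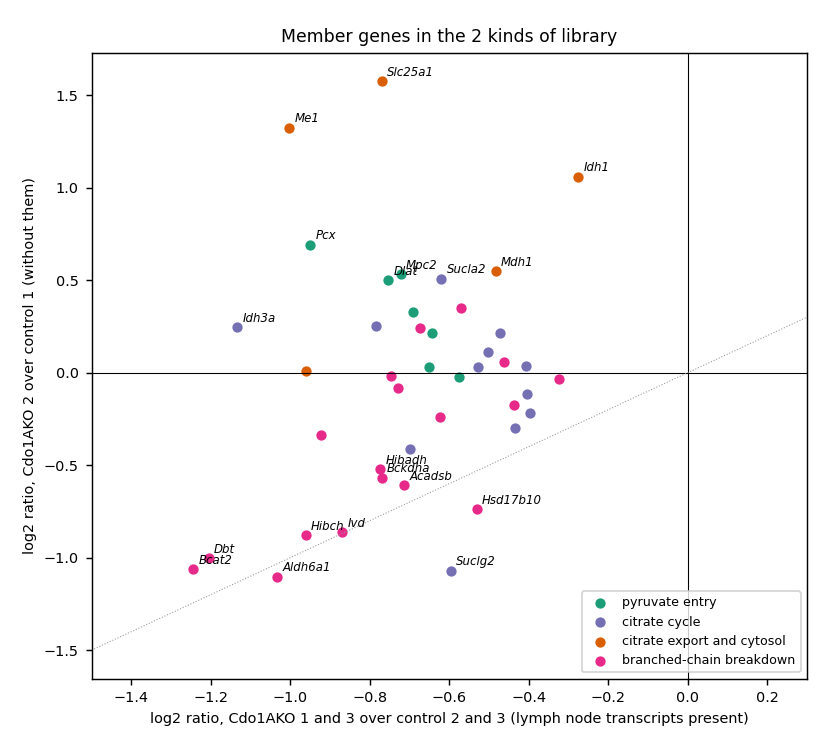
Log2 ratio of Cdo1AKO over control for the 42 members in libraries with lymph node transcripts (horizontal, 2 against 2) and without them (vertical, 1 against 1); colours mark the branches and the dotted line equal ratios. All points lie left of 0, and Aldh6a1, Bcat2, Dbt, Ivd and Hibch lie near the dotted line, while Slc25a1 lies at -0.77 and 1.58.

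With lymph node content as a term in the edgeR model, 8 members passed on the lower side, against 1.87% of all tested genes: Suclg2, Bcat2, Bckdha, Dbt, Ivd, Acadsb, Hibch and Aldh6a1. On the higher side were 0 members, against 2.26% of all tested genes. Adjusted p ran from 0.0222 for Dbt to 0.0470 for Bckdha, with log2 fold changes of -1.14 and -0.71. Within the 4 libraries with lymph node transcripts, 39 of 42 members passed on the lower side, where 7.70% of the genes in that fit did, and 0 on the higher side, against 7.65%. That fit compares the closely alike Cdo1AKO 1 and 3 with control 2 and 3 and leaves Cdo1AKO 2 out. Its median log2 fold changes were -0.78 for citrate export, -0.75 for branched-chain breakdown, -0.71 for pyruvate entry and -0.52 for the cycle.

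Levels per kilobase of listed gene length put Pcx highest in both groups, with 158 ± 136 CPM per kb in Cdo1AKO and 167 ± 29.2 in controls (SD, n = 3). Slc25a1 followed in Cdo1AKO with 142 ± 162, against 91.8 ± 18.1 in controls, and Mdh1 had 130.03 ± 75.5 and 130.11 ± 17.5. The order of these 3 in Cdo1AKO lies within their spread, which holds the high values of Cdo1AKO 2. The least abundant were Auh with 8.40 ± 3.50 and 9.85 ± 1.90 and Mccc1 with 8.94 ± 4.23 and 10.8 ± 0.876, which did not differ from each other beyond their spread.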

How the data were processed

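RNA-seq of inguinal fat was deposited as 1 table for 6 libraries. Reads were aligned to mm10 with HISAT2 2.0.5, counted per gene with featureCounts 1.5.0-p3 and compared with DESeq2 1.20.0, per the submitters' processing notes; they give no strand setting. The authors deposited raw counts per gene, which were used here, and FPKM values, which were not used for any test. Genes with low counts were removed with edgeR's filterByExpr, and counts were scaled by TMM and tested with edgeR 4.0.16 (quasi-likelihood, Benjamini-Hochberg at 0.05) in R 4.3.3. CPM values use TMM-scaled totals, and values per kilobase divide by the listed gene length. DESeq2 1.42.0, RLE scaling, no filter, replicate numbers as a block and leaving out each library were the alternatives. A lymph node term and a fit of 4 libraries with lymph node transcripts (median of the marker list over 5 CPM) were added after the data were seen. Values by library are given for the 3 genes of each role with the smallest p (2 where a role has 3 genes), for members whose groups do not overlap, and for 3 genes of each other list; 1 gene of these lists is not reported here, and the next by p takes its place. The members and lists were chosen with earlier results of these data known. Promoters are RefSeq's for GRCm38.p6, with an entry for 39 of 42 members. The edgeR script was tested on simulated data.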

Additional observations from a re-analysis of the deposited data

How the results depend on the processing

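By edgeR 0 genes passed under the RLE scaling, without the filter on low counts and with any 1 library left out. DESeq2 called 399 genes and 2 members, the lymph node term 686 and 8, and the 4 libraries with lymph node transcripts 2617 and 39; the cause was not tested. Samples with the same replicate number did not all deviate together (r = -0.66, -0.66 and 0.42). The deviations went with lymph node content, with r = 0.69 for Cdo1AKO 2 and control 1, so this check cannot exclude a pairing. With the number as a block 0 genes and 0 members passed, with group medians of -0.37 for pyruvate entry, -0.34 for the cycle and -0.64 for branched-chain breakdown. With 1 library left out, the log2 median ran from -0.80 to 0.033 for pyruvate entry, from -0.62 to -0.13 for the cycle and from -0.89 to -0.44 for branched-chain breakdown. The sign of these genes turned: Slc25a1 at -0.080 with the block, -0.024 with the lymph node term and -0.78 in the 4 libraries; Me1 at -0.29, -0.26 and -1.01; Idh1 at -0.28 in the 4 libraries; and Mdh1, which is near 0, at 9.83e-05 with RLE and 1.16e-04 with DESeq2. With 1 library left out the log2 fold changes ran from -0.78 to 0.033 for Mpc1, -0.93 to 0.24 for Mpc2, -0.89 to 0.16 for Dlat, -1.08 to 0.24 for Pcx, -0.73 to 0.18 for Sucla2, -0.61 to 0.030 for Mdh2, -0.92 to 1.05 for Slc25a1, -0.29 to 0.56 for Idh1, -0.59 to 0.23 for Mdh1, -1.08 to 0.70 for Me1 and -0.66 to 0.048 for Pcca, and the difference in the Pcx to Pdha1 log2 ratio from -0.38 to 0.18. All 18 branched-chain genes but Pcca kept a negative value under every alternative run. The precision is limited by 3 libraries a group, with Cdo1AKO 2 apart from the rest of its group.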
